A study of Homo sapiens with 8 samples.

Results

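The cytosolic ribosomal protein genes were followed in MCF10A cells, a spontaneously immortalized, non-malignant human mammary epithelial line, after 7 days inside 4 kinds of hydrogel. Members were taken by symbol (RPSA, RPLP0, RPLP1, RPLP2 and the numbered RPL and RPS symbols, with A, X, L or L1 endings), and a member had to reach a normalized count of 10 in at least 2 of the 8 libraries. Of 25369 rows, 84 matched by symbol and 80 passed the limit, 31 of the small and 49 of the large subunit. These 80 are among the 13369 genes that passed the same limit and were tested. Soft IPNs and stiff IPNs were interpenetrating networks of alginate and reconstituted basement membrane (rBM), the latter stiffened by calcium cross-linking of the alginate. Soft col:rBM gels held collagen-1 with rBM, and stiff col gels held collagen-1 at high density. The collagen gels therefore differ from the IPNs, and from each other, in matrix composition as well as in stiffness. Cells in all 4 gels were unmodified and came from the same line, and each gel has 2 libraries, from 2 independent trials (replicates 1 and 2). The deposited values are read counts divided by a factor for the library, called normalized counts here, and per-sample values below are given for replicate 1 and then replicate 2.

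The ribosome has a small subunit, which reads the mRNA codons, and a large subunit, which joins the amino acids. Most ribosomal proteins are present at 1 copy in each ribosome, and each is encoded by a gene of its own, scattered over the chromosomes. Their mRNAs typically begin with a 5′ terminal oligopyrimidine tract (TOP), a cytosine followed by further pyrimidines, by which the growth-controlling kinase mTORC1 and the RNA-binding protein LARP1 govern their translation and stability. A few members have an L-type paralog, a second gene for a closely similar protein, often with its own tissue preference. In a mammary epithelial cell the synthesis of ribosomes is a major part of growth.

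Libraries held between 13065257 and 18589590 reads on genes, as estimated from the steps between the deposited values, and 3 reads, taken as the detection limit, corresponded to between 2.41 and 3.73 normalized counts. The limit covers counting error only. The study describes paired-end sequencing and states a higher number of reads after filtering. The estimate is of counted units, which can be read pairs, and is not a measure of that number. All 12 markers fixed for the mammary epithelium of MCF10A were present (summed level from 122426 to 218359 normalized counts). They include KRT8, KRT18, EPCAM and CDH1 beside basal keratins, and do not mark a basal identity alone. Of the markers of other cell types, 2 of 5 for fibroblasts and 1 of 3 for endothelium reached 10 in any library (sums from 774 to 1463 and from 3 to 33), with COL1A2 listed at 0 in all 8. Of the 3 leukocyte markers PTPRC was listed at 0 in all 8, CD3E stayed at 1 or below, and CD68, a lysosomal protein, was at 4222 and 2092 in soft IPN, 1220 and 324 in stiff IPN, 5017 and 1348 in soft col:rBM, and 4360 and 990 in stiff col. Replicate 2 stood apart from replicate 1 in every gel, with KRT5, KRT14, KRT17 and KRT6A higher and LAMB3 and ITGB4 lower in replicate 2 in all 4 gels. The other 6 of the 12 epithelial markers had mixed directions.

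Ribosomal protein transcripts made up a smaller share of the normalized counts in stiff IPNs than in soft IPNs. The share was 16.3% and 14.7% in soft IPN, 11.95% and 10.3% in stiff IPN, 14.6% and 12.4% in soft col:rBM, and 14.9% and 12.2% in stiff col. Both stiff IPN libraries were below every other library, and in each gel replicate 2 was below replicate 1. The summed normalized counts of all genes were also lower in stiff IPN (15522001 and 14306848) than in soft IPN (17942530 and 17999273), which the share takes into account. In bulk libraries such as these, fewer cells that carry a transcript and less of it per cell cannot be told apart. Within the ribosomal protein genes the division between the subunits hardly moved: the small subunit took from 38.2% to 39.4% of the members' normalized counts over the 8 libraries.

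**Figure D1:**
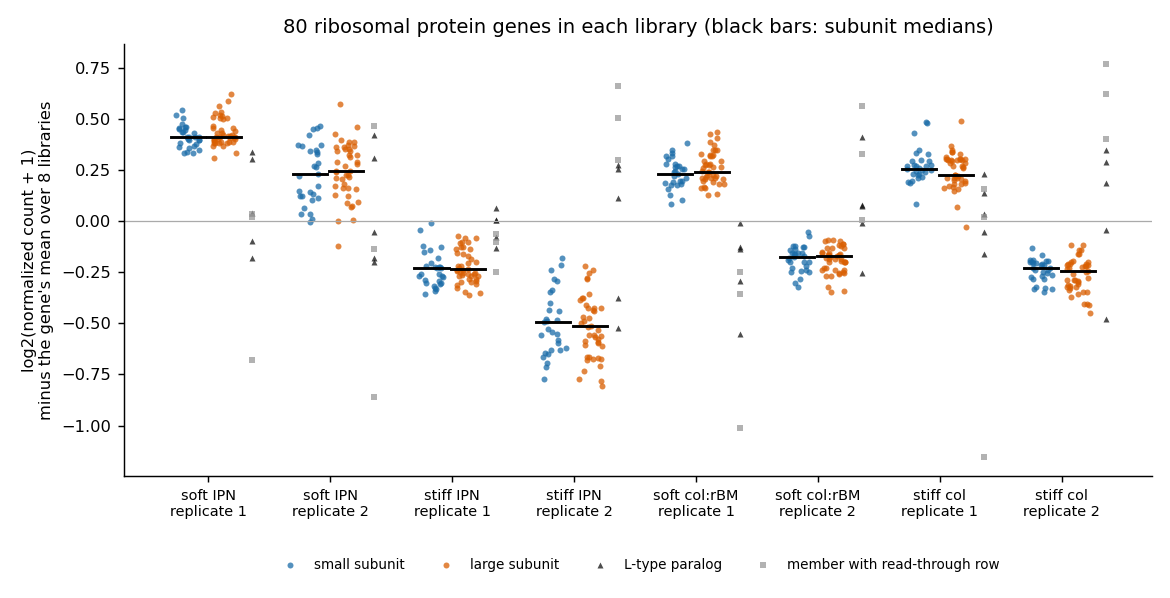
Each point is 1 of the 80 ribosomal protein genes in 1 library, plotted as log2(normalized count + 1) minus the gene's own mean over the 8 libraries, with black bars at the medians of the small (blue) and large (orange) subunit. The subunit medians lie close together in each library, highest in soft IPN replicate 1 (0.41 and 0.41) and lowest in stiff IPN replicate 2 (-0.49 and -0.51), while L-type paralogs (triangles) and members with a read-through row (squares) scatter away from them.

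Stiff IPN was compared with soft IPN as the contrast of stiffness in gels without added collagen-1. Calcium was used to stiffen the gel, so that stiffness and calcium cannot be told apart. Here 75 of the 80 members were lower in stiff IPN and 5 were higher, and the median log2 fold change was -0.69, a 1.61-fold lower level, against -0.01 over all 13369 genes. Trial 1 had a median of -0.65 and trial 2 of -0.72, and 73 members were lower in both. The small subunit (median -0.67 and -0.68 in the trials) and the large subunit (-0.65 and -0.74) had similar values. In 73 members both stiff IPN libraries were below both soft IPN libraries, which was the case for 21.4% of all genes. In the limma fit without the trial as a block no member passed an adjusted p of 0.05 (lowest 0.493), as was true of all genes (0.0% called). An unadjusted p under 0.05 was found for 43 of the 80, against 1245 of all 13369 genes. As the trial numbers pair the libraries, the fit with the trial as a replicate block is given beside it. By that fit 33 members passed, every one of them lower in stiff IPN, against 2.13% of all genes called lower and 1.69% called higher. Over all 31 settings their adjusted p ran from 0.0162 to 0.999. The 33 comprised 14 small and 19 large subunit genes. This count depended on single libraries: it was 0 without soft IPN replicate 2 and between 4 and 7 when a collagen gel library was left out. It was 1 (RPS2, adjusted p = 0.0485, limma with the block) when only the 4 IPN libraries were fitted, whereas 73 members were lower under each of the 31 settings. CD68 passed in the same comparison (log2 fold change -2.24, adjusted p = 0.0126, limma with the block), and its part in the result was not tested.

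RPS2, a small subunit protein near the channel where mRNA enters, had the largest called fall. Its level was 83944 and 78585 normalized counts in soft IPN, 46179 and 34237 in stiff IPN, 73752 and 51340 in soft col:rBM, and 71890 and 48645 in stiff col. Both stiff IPN libraries were below the other 6, and the stiff IPN level differed from soft IPN by a log2 fold change of -1.03 ± 0.17 (SE; adjusted p = 0.0306, limma with the block). RPL10, which joins the large subunit late in its assembly and sits near the peptidyl transferase centre, went from 62560 and 56917 in soft IPN to 35314 and 25952 in stiff IPN, with 59825 and 38537 in soft col:rBM and 55915 and 34989 in stiff col. Its soft and stiff IPN libraries did not overlap (log2 fold change -0.98 ± 0.18 SE, adjusted p = 0.0348 by limma with the block). RPL12, at the base of the stalk that recruits translation factors, was at 76670 and 63178 in soft IPN against 42543 and 30428 in stiff IPN, and at 63293 and 41311 in soft col:rBM and 61311 and 37486 in stiff col. This was a log2 fold change of -0.95 ± 0.16 SE (adjusted p = 0.0317). RPL8, of the peptidyl transferase centre, and RPL7A, another large subunit protein, completed the 5 largest called falls at -0.95 ± 0.20 and -0.94 ± 0.17 (SE; adjusted p = 0.0458 and 0.0326). The smallest called fall was that of RPL13A, at -0.62 ± 0.13 (adjusted p = 0.0474).

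The stalk genes and RPSA were lower in stiff IPN with the rest. RPLP0, the anchor of the stalk, was at 99782 and 88074 normalized counts in soft IPN, 58834 and 40945 in stiff IPN, 93502 and 62086 in soft col:rBM and 86199 and 56843 in stiff col. It passed the test with the block between the IPNs (log2 fold change -0.93 ± 0.17 SE, adjusted p = 0.0344, limma). RPLP1 and RPLP2, which form the mobile arms of the stalk, had log2 fold changes of -0.70 and -0.58 and did not pass (adjusted p = 0.0558 and 0.111, limma with the block). RPSA, a small subunit protein also studied as a laminin-binding surface receptor, was at 26006 and 23717 in soft IPN and 16529 and 14382 in stiff IPN, with 24303 and 17934 in soft col:rBM and 24414 and 18016 in stiff col. Its 2 IPN groups did not overlap, and its log2 fold change of -0.69 ± 0.15 SE just missed the threshold with the block (adjusted p = 0.051, limma).

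The study's list of genes shared with patient samples includes RPL4, RPS14, RPS15 and RPL13, and as it was drawn from these libraries it is not independent evidence of direction. Between the IPNs RPL4, which lines the exit tunnel (log2 fold change -0.87), RPS14 (-0.86) and RPS15 (-0.79) passed with the block, with adjusted p from 0.0413 to 0.0451 by limma. RPL13 was at 55679 and 45274 normalized counts in soft IPN and 29047 and 27610 in stiff IPN, a log2 fold change of -0.83 ± 0.20 SE (adjusted p = 0.0612).

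**Figure D2:**
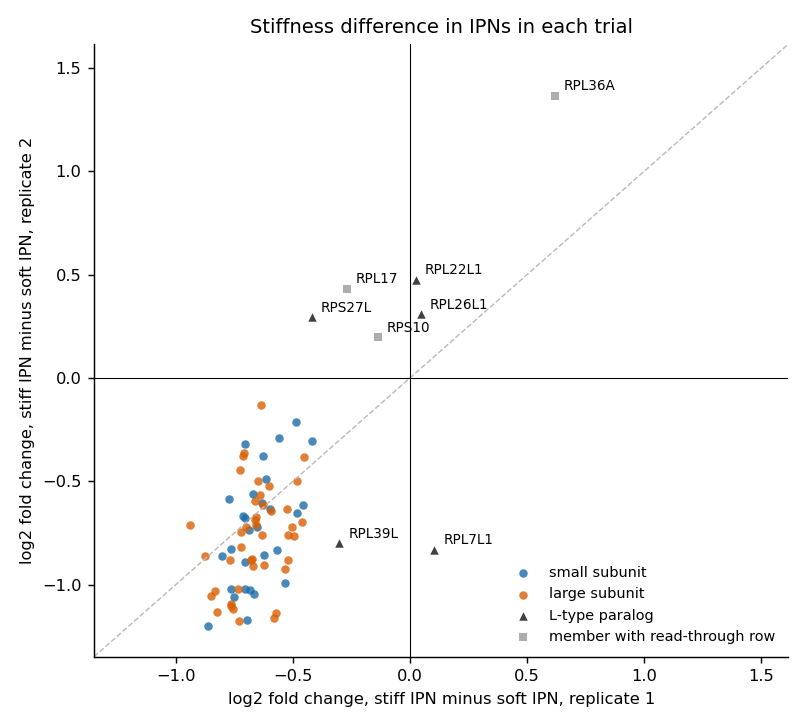
Each point is a ribosomal protein gene, with its stiff IPN minus soft IPN log2 difference in replicate 1 on the horizontal axis and in replicate 2 on the vertical axis; the dashed line marks equal values. The 72 members other than L-type paralogs and members with a read-through row all lie below 0 in both trials, with mean changes between -1.03 and -0.35, and RPL36A lies highest at 0.62 and 1.37.

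A TOP start is shared by most members and is shown for those that the results turn on. In the canonical transcripts of GENCODE 44 lifted to hg19, a cytosine at the first base followed by at least 4 pyrimidines, read on the transcript's own strand, was found in 58 of the 80 members (72.5%) and in 612 of 12100 other protein-coding genes tested (5.06%). Annotated start sites can differ from those used in these cells by some bases, so that the other 22 members are only without the tract at the annotated base. The first 20 bases of 9 transcripts are given below with the leading pyrimidine tract in capitals, for 3 of the largest called falls and for 3 members beside their L-type paralogs.
RPS2 (chr16:2014808-2014827, minus strand): CTTCTTTTCCgacaaaacac
RPL12 (chr9:130213666-130213685, minus strand): CCTCTCggctttcggctcgg
RPL7A (chr9:136215073-136215092, plus strand): CTTTCTCTCTCCTCCCgccg
RPL22 (chr1:6259636-6259655, minus strand): CCTTTCTaactccgctgccg
RPL22L1 (chr3:170587965-170587984, minus strand): CTCTCTgctctcgcggccga
RPL26 (chr17:8286492-8286511, minus strand): CTCTTCCCTTTTgcggccat
RPL26L1 (chr5:172386427-172386446, plus strand): acttccggccctgcgcactc
RPS27 (chr1:153963238-153963257, plus strand): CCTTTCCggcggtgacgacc
RPS27L (chr15:63449657-63449676, minus strand): gcagatcgcttgcagcttgc
Members with and without the tract differed little between the IPNs. The median log2 fold change was -0.68 in the 58 members with it and -0.69 in the 22 without, and 25 and 8 of them passed with the block. RPL22L1 carries a tract of 6 pyrimidines and was not lower in stiff IPN, whereas RPL4, RPL3 and RPS15 have none at the annotated start and passed. RPL26L1 and RPS27L, also without a tract, had log2 fold changes of 0.18 and -0.06. Among other genes tested, the median was -0.24 for the 612 with the tract and -0.01 for the 11488 without.

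The members with the largest differences between the IPNs had coding sequences of higher GC content and higher levels. Over the 72 members other than L-type paralogs and members with a read-through row, the log2 fold change had Pearson's r = -0.61 with the GC content of the coding sequence and r = -0.50 with the log2 mean level, across genes that share the same libraries and are not independent replicates. Across the 12100 other protein-coding genes these values were -0.20 and -0.19. In the 36 members of lower GC content (41.7% to 51.4%) the median log2 fold change was -0.62 and 10 passed with the block, and in the 36 of higher GC content (51.6% to 62.6%) it was -0.83 and 23 passed. The part of base composition and level in the result was not tested. Other genes of high level also stood low: the 146 genes outside the list with a mean of 10000 or more had a median of -0.38.

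**Figure D3:**
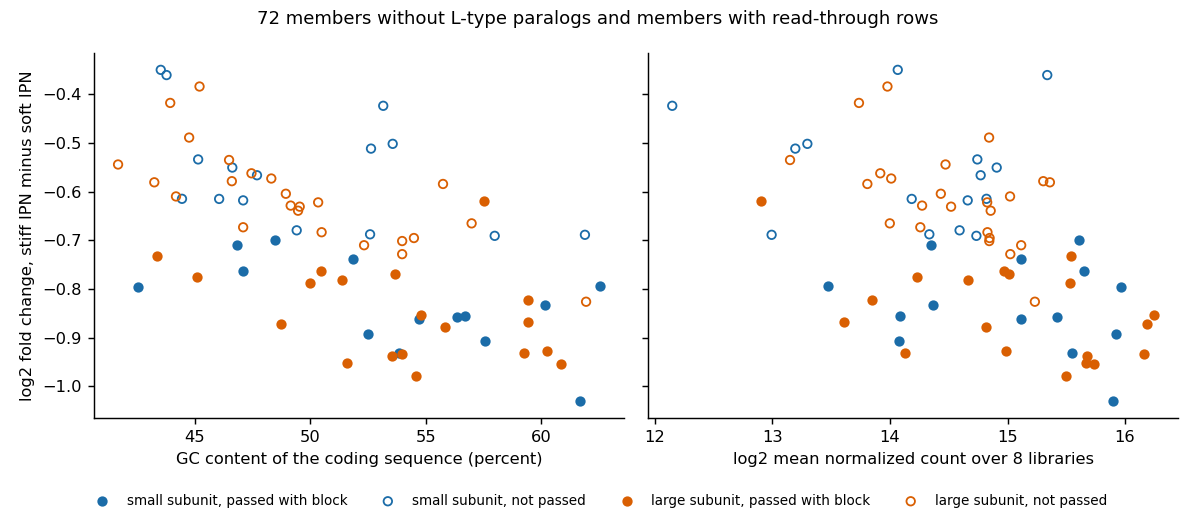
The log2 fold change in stiff IPN over soft IPN of 72 ribosomal protein genes is plotted against the GC content of the coding sequence (left) and the log2 mean normalized count (right), with filled circles for genes that passed in limma with the trial as a block. Changes run from -0.35 at low GC content to -1.03 for RPS2, whose coding sequence has 61.7% GC.

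Members whose log2 fold change between the IPNs departed from the members' median by at least 0.5, with the same direction in both trials, were RPL36A, RPL22L1, RPL26L1, RPL17, RPS10 and RPS27L. RPL22L1 was at 4193 and 3552 normalized counts in soft IPN, 4267 and 4939 in stiff IPN, 2786 and 4310 in soft col:rBM, and 3939 and 5203 in stiff col. Both stiff IPN libraries were above both soft IPN libraries, and the log2 fold change was 0.25 ± 0.27 SE (adjusted p = 0.774, limma; 0.483 with the block). RPL22, its partner and an RNA-binding protein of the large subunit, was at 17589 and 13564 in soft IPN, 12843 and 10408 in stiff IPN, 15091 and 12116 in soft col:rBM, and 15109 and 12423 in stiff col. As the partner stood lower in stiff IPN (log2 fold change -0.42 ± 0.14 SE, adjusted p = 0.117 with the block) and the paralog did not, RPL22L1 went from 23.8% and 26.2% of RPL22 in soft IPN to 33.2% and 47.5% in stiff IPN. In the collagen gels RPL22L1 was 18.5% and 35.6% of RPL22 in soft col:rBM and 26.1% and 41.9% in stiff col, so that the spread between trials was as wide as the difference between gels. RPL22L1 is the only L-type paralog near the lowest of the regular members. Its mean level per kilobase of coding sequence was 11335 normalized counts, against 12541 for RPL13A and 13145 for RPS26, the lowest and second lowest of the 72. RPL22 stood at 35528. Pseudogene rows of RPL13A and RPS26 held counts in all 8 libraries, as RPL13AP20 (1599 to 4062) and RPS26P11 (506 to 770). As the authors discarded multimapped reads, the levels of RPL13A and RPS26 may be understated, which was not tested.

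RPL26L1 and RPS27L showed the same kind of shift at lower levels. RPL26L1 was at 571 and 623 normalized counts in soft IPN, 590 and 772 in stiff IPN, 528 and 682 in soft col:rBM, and 662 and 792 in stiff col (log2 fold change between the IPNs 0.18 ± 0.23 SE, adjusted p = 0.81). The IPN groups overlapped, and relative to RPL26, a protein at the exit of the large subunit tunnel, it went from 1.52% and 2.16% in soft IPN to 2.19% and 3.78% in stiff IPN. RPS27L, which is known as a p53 target, was at 1719 and 1196 in soft IPN, 1285 and 1466 in stiff IPN, 1245 and 1138 in soft col:rBM, and 1593 and 1315 in stiff col (-0.06 ± 0.23 SE, adjusted p = 0.948), and its IPN groups overlapped. It was 5.24% and 4.88% of RPS27 in soft IPN and 6.70% and 8.99% in stiff IPN. For these 3 paralogs the log2 fold change of the paralog exceeded that of its partner in both trials, by 0.48 and 0.86 for RPL22L1, 0.53 and 0.81 for RPL26L1, and 0.35 and 0.88 for RPS27L. None of the 5 L-type paralogs passed the test in any of the 5 comparisons over all 8 libraries, with or without the block.

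The remaining paralogs had lower or mixed values in stiff IPN. RPL7L1, a nucleolar assembly protein related to RPL7, was at 1079 and 1431 normalized counts in soft IPN and 1160 and 804 in stiff IPN, and its trials had opposite directions (0.10 and -0.83). Without stiff IPN replicate 1 it passed with the block (-0.84, adjusted p = 0.00716, limma). RPL39L, a paralog best known from testis, was at 116 and 126 in soft IPN, 94 and 72 in stiff IPN, 93 and 93 in soft col:rBM, and 103 and 67 in stiff col, between 0.347% and 0.530% of RPL39. Its log2 fold change between the IPNs of -0.55 was close to the -0.54 of RPL39. RPL10L, another testis paralog, was listed at 0 in all 8 libraries and RPL3L, the form of heart and skeletal muscle, at 2 or below. RPL21 (at most 3), which is no L-type paralog, also stayed outside the limit, while RPS10, the lowest inside it, ranged from 28 to 109. Pseudogene rows of RPL21 are listed as well (RPL21P28 at 0, RPL21P44 at 2 or below). As multimapped reads were discarded, the RPL21 value cannot be read as absence of its transcript. Not all of the 4 symbols under the limit are named here.

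**Figure D4:**
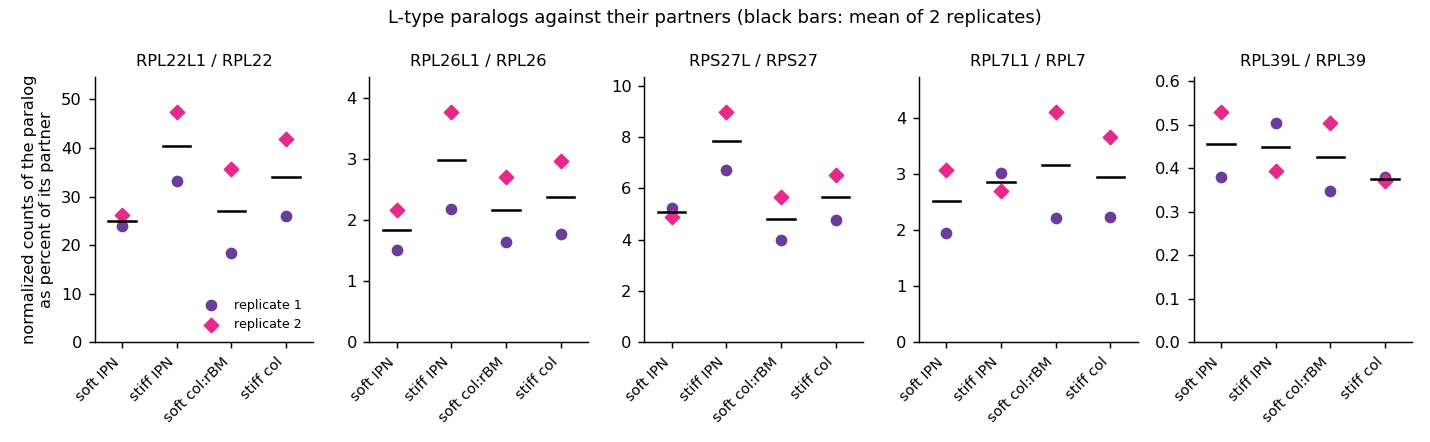
Normalized counts of 5 L-type paralogs as a percent of their partner's in each of the 4 gels, with circles for replicate 1, diamonds for replicate 2 and bars for their mean; each panel has its own axis from 0. RPL22L1 averages 40.3% of RPL22 in stiff IPN, above both soft IPN values (23.8% and 26.2%), and RPS27L averages 5.06% of RPS27 in soft IPN and 7.84% in stiff IPN, while the means of RPL39L stay between 0.375% and 0.455%.

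How far a paralog's reads can be told from its partner's depends on their sequences, and the authors discarded reads that mapped to more than 1 place. The coding sequences of RPL22 and RPL22L1 were identical in 64.9% of 387 aligned positions, those of RPL26 and RPL26L1 in 84.2% of 438, of RPL7 and RPL7L1 in 52.8% of 774, and of RPS27 and RPS27L in 78.0% of 255. RPL39 and RPL39L are the closest, with 8 differing bases in 156 and a longest identical stretch of 44 bases. The RPL39 and RPL39L coding sequences (stop codon included) are printed with these differences in capitals, since they show how few positions separate a gene with at least 18095 normalized counts in every library from one with 126 at most.
RPL39 (gene at chrX:118920467-118925593, minus strand): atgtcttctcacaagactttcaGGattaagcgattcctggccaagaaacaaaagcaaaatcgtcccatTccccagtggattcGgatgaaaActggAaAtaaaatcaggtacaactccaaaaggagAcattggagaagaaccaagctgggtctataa
RPL39L (gene at chr3:186838736-186898696, minus strand): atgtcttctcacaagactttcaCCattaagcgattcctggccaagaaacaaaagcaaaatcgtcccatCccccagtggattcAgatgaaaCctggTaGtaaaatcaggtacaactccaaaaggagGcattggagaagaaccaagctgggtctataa
The study's reads were, as sequenced, longer than this identical stretch. How far reads of RPL39 were counted for RPL39L was not tested, and the RPL39L values, at under 1% of RPL39, are uncertain. RPS27 and RPS27L differ at 56 of 255 positions spread over the coding sequence, and RPS27L was at several percent of RPS27 or more in every library.
RPS27 (gene at chr1:153963238-153964631, plus strand): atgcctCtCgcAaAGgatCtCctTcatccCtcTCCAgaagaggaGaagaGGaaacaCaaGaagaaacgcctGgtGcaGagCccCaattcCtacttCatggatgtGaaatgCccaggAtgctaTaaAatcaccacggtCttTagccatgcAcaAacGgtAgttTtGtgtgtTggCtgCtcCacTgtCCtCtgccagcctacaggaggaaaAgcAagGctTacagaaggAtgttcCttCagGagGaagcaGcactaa
RPS27L (gene at chr15:63418071-63450220, minus strand): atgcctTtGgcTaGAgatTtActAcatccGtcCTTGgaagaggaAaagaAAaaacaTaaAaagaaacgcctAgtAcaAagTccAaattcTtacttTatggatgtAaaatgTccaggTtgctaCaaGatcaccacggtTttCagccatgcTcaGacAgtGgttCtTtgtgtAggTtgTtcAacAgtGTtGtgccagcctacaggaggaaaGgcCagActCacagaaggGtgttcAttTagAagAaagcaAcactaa

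RPL36A, RPL17 and RPS10 also departed, and all 3 share exons with a read-through gene that the table lists at 0 in all 8 libraries (RPL36A-HNRNPH2, RPL17-C18orf32 and RPS10-NUDT3). RPL36A, of the tRNA exit site, was at 42 and 37 normalized counts in soft IPN, 65 and 97 in stiff IPN, 57 and 101 in soft col:rBM, and 76 and 105 in stiff col. Both soft IPN libraries were the lowest of the 8, and the log2 fold change between the IPNs was 0.99 ± 0.40 SE (adjusted p = 0.52, limma; 0.105 with the block). RPL17 was at 199 and 179 in soft IPN and 165 and 242 in stiff IPN, and RPS10 at 65 and 88 against 59 and 101, so that their groups overlapped. Per kilobase of coding sequence these 3 had mean levels of 228, 361 and 142, against at least 12541 in the 72 regular members. Reads on exons shared by overlapping genes may not be counted for either gene, the counting setting is not given in the sources used here, and these 3 values are uncertain.

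Stiff col was then compared with stiff IPN, a dense collagen-1 gel against a gel of alginate and rBM stiffened by calcium. The parts of collagen, rBM, alginate and calcium cannot be told apart in this contrast. In stiff col 78 of the 80 members were higher, 69 of them in both trials, with a median log2 fold change of 0.37 (0.47 in trial 1 and 0.26 in trial 2), against 0.00 over all genes. The median was 0.13 without stiff col replicate 1 and 0.61 without stiff col replicate 2. No member passed either without the block (0.0% of all genes called) or with it (1.0% of all genes called higher). With the block the lowest adjusted p was 0.0846, and 37 members had an unadjusted p under 0.05, against 2530 of all 13369 genes. In 23 members both stiff col libraries were above both stiff IPN libraries, 15 of the small and 8 of the large subunit, against 15.1% of all genes. RPL31, a large subunit protein at the tunnel exit, had the largest log2 difference: it was at 16008 and 12452 normalized counts in stiff IPN and 26698 and 17258 in stiff col (0.60 ± 0.15 SE with the block, adjusted p = 0.0846, limma). Its groups did not overlap. RPS10 departed from the rest with -0.47, on stiff col values of 28 and 109 that lay on either side of the stiff IPN values.

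Soft col:rBM was compared with soft IPN, the 2 soft gels. Both hold rBM, one with collagen-1 and the other with alginate, so that added collagen and alginate cannot be told apart. In soft col:rBM 77 of 80 members were lower, 75 in both trials, with a median of -0.30 (-0.19 and -0.40 in the trials) against 0.00 over all genes, and in 33 members both soft col:rBM libraries were below both soft IPN libraries, against 10.4% of all genes. The median was -0.50 without soft col:rBM replicate 1 and -0.095 without soft col:rBM replicate 2. No member passed without the block (0.0% of all genes) or with it (0.0224% of all genes), and the lowest adjusted p with the block was 0.861. RPL36A departed upwards (0.93 ± 0.31 SE with the block, adjusted p = 0.861, limma). The stiff IPN and soft col:rBM comparisons both use the soft IPN libraries, and stiff col is read against stiff IPN, so that these values are not independent of each other.

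Stiff col was compared with soft col:rBM, the stiffer with the softer collagen gel. These gels differ in composition as well as in stiffness, so that the part of each cannot be told apart. The members lay close to 0, with 51 lower and 29 higher and a median of -0.04 (0.00 in trial 1 and -0.07 in trial 2). No member passed in either fit (0.0% of all genes in both). No unadjusted p of a member was under 0.05, against 140 of all 13369 genes without the block and 497 with it. No member had both stiff col libraries below both soft col:rBM libraries, against 9.5% of all genes. RPS2, at 73752 and 51340 normalized counts in soft col:rBM and 71890 and 48645 in stiff col, had a log2 fold change of -0.06. The difference between the collagen gel contrast and the IPN contrast was positive for 79 of 80 members, for 73 in both trials. Its median was 0.67 (0.42 without stiff col replicate 1). It did not pass for any member without the block (0.0% of all genes) or with it (0.015% of all genes). With the block the lowest adjusted p was 0.282, and 65 members had an unadjusted p under 0.05, against 1321 of all 13369 genes. The 4 members that departed in this contrast were RPL36A (-0.76), RPL26L1 (0.09), RPS10 (0.12) and RPL22L1 (0.14).

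The replicates differed in the members by as much as some gels did. From replicate 1 to replicate 2 the median log2 change of the 80 members was -0.18 in soft IPN, -0.31 in stiff IPN, -0.42 in soft col:rBM and -0.50 in stiff col, with between 68 and 74 members lower in replicate 2, while the median over all genes lay between -0.01 and 0.00. The 5 L-type paralogs had medians from 0.12 to 0.37 in the same 4 contrasts. KRT5, a basal keratin, was higher in replicate 2 in each gel, as in soft IPN with 19940 and 44022 normalized counts. The part of the trial difference in the comparisons of gels was examined only by the block and within each trial.

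Among genes that work with the ribosome, the list of translation factors and further genes known for TOP mRNAs was lower in stiff IPN, while the lists of ribosome assembly and of the mitochondrial ribosome were centred near 0. This list holds 16 translation factors together with TPT1, NAP1L1, a histone chaperone, and HNRNPA1, a splicing protein, and all 19 were lower in stiff IPN, 17 in both trials, with a median log2 fold change of -0.56, and 5 passed with the block. The largest of these were EEF1G, a subunit of the elongation factor that recharges EEF1A1 (-1.06, adjusted p = 0.0317, limma), EEF2, which moves the ribosome along the mRNA (-1.02, adjusted p = 0.0354), and EIF4B, which assists the unwinding of the mRNA (-0.95, adjusted p = 0.0323). EEF2 was at 99927 and 96868 normalized counts in soft IPN and 61803 and 38196 in stiff IPN. Its transcript begins with a tract of 7 pyrimidines, whereas EEF1G has no tract at the annotated start.
EEF2 (chr19:3985442-3985461, minus strand): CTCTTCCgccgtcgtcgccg
Of 5 ribosome-associated and fusion genes, GNB2L1 (RACK1, a scaffold on the small subunit; -1.03, adjusted p = 0.0317) and GLTSCR2 (NOP53, a large subunit assembly factor; -0.91, adjusted p = 0.0291) passed. GNB2L1 and GLTSCR2 are also on the study's list of genes shared with patient samples. As that list was drawn from these libraries, they are not independent evidence of direction. FAU, which encodes a ribosomal protein fused to a ubiquitin-like protein, had -0.57 (adjusted p = 0.103), and RPL36AL, the intronless relative of RPL36A, had 0.11 (adjusted p = 0.769, limma with the block). The 51 genes of ribosome assembly and RNA polymerase I had a median of 0.01, with 25 lower and 26 higher, of which FBL (-0.77), the rRNA methyltransferase, and NOB1 (-0.64), a small subunit nuclease, fell and NOP58 (0.81), a core protein of the same particle as FBL, rose with the block (adjusted p = 0.0412, 0.0468 and 0.0474, limma). Mitochondrial ribosomal proteins, which serve the separate ribosome of mitochondria, had 78 of 81 listed genes tested, with a median of -0.02 and 40 lower and 38 higher. None passed with either fit in limma. An unadjusted p under 0.05 was found for 23 with the block and 2 without, against 3300 and 1245 of all 13369 genes. Of 30 rows named as ribosomal protein pseudogenes 16 were tested, with a median of -0.19, and RPL13AP20 passed (-1.02, adjusted p = 0.0373), at 3538 and 4062 normalized counts in soft IPN and 2199 and 1599 in stiff IPN.

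**Figure D5:**
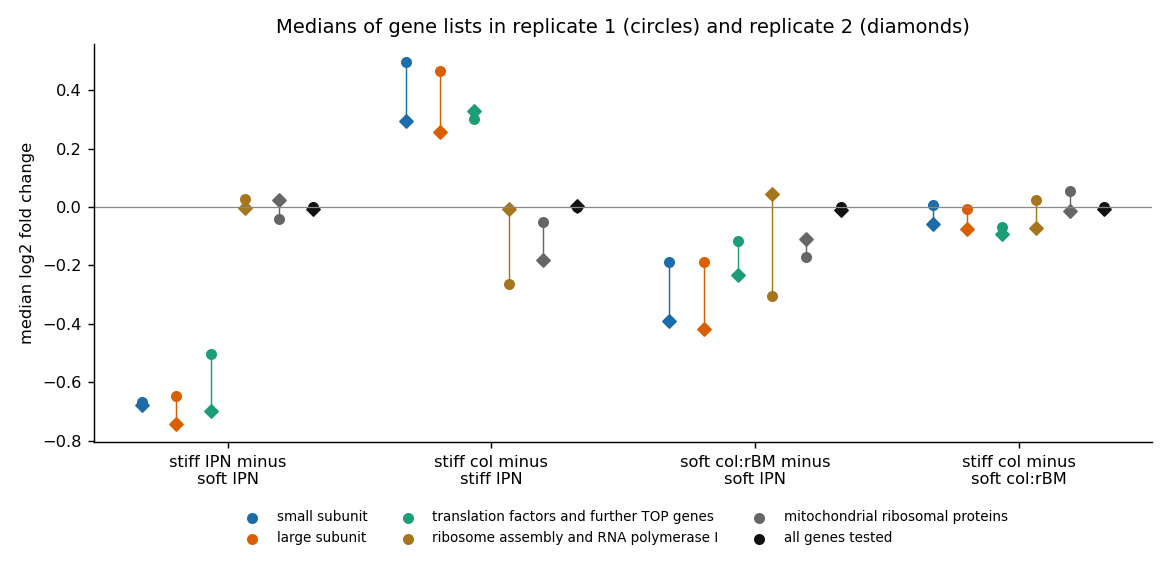
Median log2 fold change of 5 gene lists and of all 13369 genes tested in 4 comparisons, with circles for replicate 1 and diamonds for replicate 2 joined by a line. The small (blue) and large (orange) subunit and the list of translation factors and further TOP genes (green) lie between -0.50 and -0.74 from soft to stiff IPN in both trials, while ribosome assembly genes, mitochondrial ribosomal proteins and all genes lie between -0.04 and 0.03.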

How the data were processed

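RNA-seq libraries of MCF10A cells from 4 gels, 2 per gel, were analysed. The authors trimmed the reads (Trim Galore 0.3.3 in the submitters' processing notes), aligned them to hg19 (Bowtie2 in the study's methods, TopHat2 2.0.13 in the notes), removed multimapped reads and counted genes with HTSeq. What was deposited is a signal, these counts divided by 1 factor per library and rounded by the authors, who used DESeq2, so no count test was run. Genes with a value of 10 or more in at least 2 libraries (13369) were fitted on log2(value + 1) with limma 3.58.1 (statmod 1.5.0, R 4.3.3), 1 mean per gel, trend and robust moderation, and Benjamini-Hochberg adjustment over all genes tested at 0.05. A fold change on this scale understates the change of low genes. The fit was tested on simulated data. The replicate numbers pair the libraries: differences of replicate 2 from replicate 1 correlated across genes in all 6 pairs of gels (r from 0.28 to 0.82), and the study describes independent trials, so the trial was also fitted as a block. With 2 libraries against 2 an exact permutation test cannot give a two-sided p under 0.333. Coding sequences and starts came from GENCODE 44 canonical transcripts lifted to hg19 and were read from the reference with Python 3.11.15 and Biopython 1.88. Named genes were the L-type paralogs and partners, the 6 members of the study's shared list, up to 5 called members per direction, departing members, stalk genes, RPSA, extremes of level and up to 3 called genes of each other list. The single values of other genes were named after they were seen. Some of the genes so chosen are not reported here. Members and lists were chosen with earlier results of these data known. Alternatives were other scalings, filters and pseudocounts, only the gels compared, and leaving out each library. Of the rows, 28 hold dates in place of symbols and stayed unnamed.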

Additional observations from a re-analysis of the deposited data

Results flagged for a closer look

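For 13 members the stiffness difference had opposite directions in the 2 matrices in both trials: they were lower in stiff than in soft IPN and in the collagen gels the stiff gel was the higher of the 2. The difference between the collagen and IPN effects on the log2 scale was 0.84 for RPL31, 0.80 for RPS15A, 0.73 for RPS27, 0.71 for RPS25, 0.70 for RPL23, 0.69 for RPSA, 0.68 for RPS29, 0.63 for RPL26, 0.55 for RPL38, 0.52 for RPL34, 0.46 for RPS24, 0.44 for RPL22 and 0.43 for RPS27A. The signs alone flagged them. The interaction term in limma did not pass for any of them, with or without the block, and their differences lie on both sides of the 0.67 that is the median of all 80 members.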

How the results depend on the processing

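The limma fit without the block called no member in the 5 comparisons, under every scaling, filter and pseudocount tried. With the replicate block 33 members were called lower in stiff than in soft IPN. That count was 25 with upper-quartile rescaling, 28 with equal totals, 31 with equal totals of the other genes (an alternative chosen after seeing the data) and 1 with only the gels compared. Leaving out 1 library at a time, with and without the block, gave between 0 and 41 calls: with the block 0 without soft IPN replicate 2, 26 without soft IPN replicate 1, 41 without stiff IPN replicate 1, 35 without stiff IPN replicate 2, 7 and 5 without soft col:rBM replicates 1 and 2, and 6 and 4 without stiff col replicates 1 and 2. With the block, only the gels compared gave 3 calls between stiff col and soft col:rBM. The share of all genes called under these alternatives is not given here, so that their counts cannot be set against it. Over all 8 libraries the block changed no call of a member outside the comparison of the IPNs. The causes were not tested. An arm left with 1 library is assumed to vary like the other gels.

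Equal totals moved the median of all genes between the IPNs to 0.26 and that of the members to -0.42, with and without the block, so that the distance between them was kept. The median of the members between stiff col and soft col:rBM ran from -0.27 without stiff col replicate 1 to 0.22 without stiff col replicate 2, and thus its sign rested on the stiff col libraries.

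The 45 results for named genes had 1342 alternative values. In 35 results the sign was kept throughout, and in 10 it turned, in 48 of these values. None of these 10 passed over all 8 libraries, and of their alternative values RPL7L1 alone passed, between the IPNs with the block and without stiff IPN replicate 1 (-0.84, adjusted p = 0.00716, limma). Between the IPNs, leaving out libraries gave -0.076 to 0.58 for RPL22L1, -0.016 to 0.37 for RPL26L1, -0.84 to 0.12 for RPL7L1, -0.21 to 0.37 for RPL17, -0.43 to 0.49 for RPS10 and -0.32 to 0.20 for RPS27L, and RPS27L became 0.21 with equal totals and 0.13 with equal totals of the other genes. RPS10 ran from -1.43 to 0.49 between stiff col and stiff IPN. In the difference between the collagen gel and IPN contrasts, leaving out libraries gave -0.19 to 0.46 for RPL22L1, -0.10 to 0.29 for RPL26L1 and -0.84 to 1.08 for RPS10. In the same order, equal totals gave -0.083, -0.13 and -0.10, and equal totals of the other genes gave -0.0096, -0.052 and -0.023, each also with the block.

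Depth limits the lowest members: RPS10, RPL36A and RPL39L had values near or under 100.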

Other observations

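The members with the highest mean levels over the 8 libraries were RPL3 (77913.5 normalized counts) and RPL4 (74533.4), both of which reach into the core of the large subunit, and those with the lowest were RPS10 (70.1) and RPL36A (72.5). Per kilobase of coding sequence RPL41, whose coding sequence has 75 bases, stood highest with 632845, followed by RPL39 (148578) and RPS18 (136515), both of them members that were lower in stiff than in soft IPN. Reads on untranslated parts of a transcript can count for the gene as well. Division by coding length alone therefore raises members with short coding sequences, and this order is not one of transcript numbers.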
